A study of Mus musculus with 18 samples.

Results

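Transcripts of 10 genes of the CC chemokine system were followed in a mouse macrophage line, 9 of them ligands (Ccl2, Ccl3, Ccl4, Ccl6, Ccl7, Ccl9, Ccl17, Ccl20 and Ccl22) and 1 a receptor-like gene (Ccrl2). Members were taken by gene symbol from the platform's annotation. They made up 10 of the 18193 genes that have a probe set of their own on the array and 12 of its 45101 probe sets. RNA of RAW264.7, an established line of mouse macrophages, was measured on 18 Affymetrix arrays in 6 groups of 3. The vehicle group had 0.1% DMSO, the solvent. The fraction group had a sub-fraction of St John's wort (Hypericum perforatum) at 10 ug/mL. The mixture group had 4 plant compounds together, pseudohypericin (0.03 uM), amentoflavone (0.07 uM), quercetin (0.08 uM) and chlorogenic acid (0.2 uM), a combination that the labels call the 4-component-system. The other 3 groups had the same treatments with 10 ug/mL of lipopolysaccharide (LPS), a bacterial cell wall component. The DMSO content is recorded for the vehicle groups only, and not for those with the fraction or the mixture. Treatment lasted 8 h in all 6 groups and began in the dark, with 30 min of ambient light afterwards. All cells were of 1 line, and separate cultures for the 3 arrays are not stated in the labels. The p-values therefore measure only the spread between these arrays, which may be technical.

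CC chemokines are small secreted proteins with a pair of adjacent cysteines that draw leukocytes along a gradient by binding G protein-coupled receptors. Macrophages that sense LPS through Toll-like receptor 4 activate NF-kB and other factors and transcribe many chemokine genes. Ccl2 and Ccl7 encode ligands of CCR2, the receptor by which monocytes are recruited, Ccl3 and Ccl4 encode macrophage inflammatory proteins that attract monocytes and lymphocytes, and Ccl6 and Ccl9 encode ligands of CCR1 found in rodents. Ccl17 and Ccl22 encode ligands of CCR4, Ccl20 encodes the ligand of CCR6, and Ccrl2 encodes an atypical receptor that binds chemerin without signalling.

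The values were MAS5 intensities on a linear scale, scaled by the authors so that every array had a 2% trimmed mean of 500.0. Array medians lay between 52.1 and 66.8, and arrays of 1 group correlated at 0.970 to 0.979 across the log2 values of the 11547 genes kept for testing. The array median served as the line below which a probe set was taken as dim. Of 10 macrophage markers, 9 lay above it on all 18 arrays (Adgre1, Cd68, Csf1r, Lyz2, Itgam, Spi1, Cd14, Fcgr1 and Msr1), and Mertk lay above it on 0. No marker of T cells, B cells, dendritic cells, neutrophils, fibroblasts, epithelium or endothelium was above it on every array, and the most frequent, Epcam, was above it on 9.

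Promoter sequence was on hand in RefSeq (build GRCm38.p6) for 7 of the 10 genes. Windows of 5 genes are shown, those of the 3 genes with the most NF-kB motif matches, of which Ccl20 also carries the main treatment difference, and those of Ccl9 and Ccl3, genes of 1 cluster on chromosome 11, of which the former has a match and the latter none. Each window is the 250 bases upstream of the annotated start site, written 5′ to 3′ on the gene's strand. Capitals mark matches, on either strand, to GGGNNNNNCC (an NF-kB motif) or, in Ccl9, also TGANTCA (an AP-1 motif). The windows are chr1:83116516-83116765 (plus strand) for Ccl20, chr8:94745434-94745683 (plus) for Ccl22, chr9:111057519-111057768 (minus) for the first of 3 start sites of Ccrl2, chr11:83578637-83578886 (minus) for Ccl9 and chr11:83649379-83649628 (minus) for Ccl3.
Ccl20: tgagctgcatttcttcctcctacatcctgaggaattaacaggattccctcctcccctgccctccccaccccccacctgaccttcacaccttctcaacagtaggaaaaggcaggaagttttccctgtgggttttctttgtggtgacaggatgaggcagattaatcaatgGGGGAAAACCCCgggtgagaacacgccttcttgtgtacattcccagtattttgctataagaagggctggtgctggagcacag
Ccl22: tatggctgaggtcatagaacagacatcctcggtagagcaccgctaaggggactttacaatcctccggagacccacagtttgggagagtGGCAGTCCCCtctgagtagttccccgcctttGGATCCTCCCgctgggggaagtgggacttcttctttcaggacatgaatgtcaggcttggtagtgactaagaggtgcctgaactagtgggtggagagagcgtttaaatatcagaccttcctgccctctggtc
Ccrl2: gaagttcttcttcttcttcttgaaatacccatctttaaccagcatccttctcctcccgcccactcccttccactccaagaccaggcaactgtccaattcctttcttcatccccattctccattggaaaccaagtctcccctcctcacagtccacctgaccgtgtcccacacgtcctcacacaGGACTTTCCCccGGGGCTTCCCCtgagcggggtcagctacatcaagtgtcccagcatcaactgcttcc
Ccl9: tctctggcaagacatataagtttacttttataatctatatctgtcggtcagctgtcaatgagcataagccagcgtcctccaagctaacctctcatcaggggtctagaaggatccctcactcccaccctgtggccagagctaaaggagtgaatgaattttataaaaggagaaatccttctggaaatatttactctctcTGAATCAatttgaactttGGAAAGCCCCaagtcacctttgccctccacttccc
Ccl3: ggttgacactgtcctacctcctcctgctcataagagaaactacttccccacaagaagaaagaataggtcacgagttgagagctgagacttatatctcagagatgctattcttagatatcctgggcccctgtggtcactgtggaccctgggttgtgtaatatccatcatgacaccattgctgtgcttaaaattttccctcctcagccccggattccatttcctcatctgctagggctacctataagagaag

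The Ccl20 window held 3 overlapping NF-kB matches between 82 and 71 bases before the start, which appear as 1 capital run. Ccl22 had 2 separate matches, at 162 to 153 and at 131 to 122 bases. Ccrl2 had 3, at 68 to 59 bases and as an overlapping pair at 56 to 46, while the windows of its other start sites held no match to any of the motifs searched. Ccl9 had 1, at 35 to 26 bases, and its AP-1 match lay at 53 to 47. The windows of Ccl3, Ccl6 and Ccl17 held none of these letters and none of TTGCNNAA (a C/EBP motif), which says only that they are not in those bases. Such matches are common. Of 32851 RefSeq windows of this length, 45.8% held the NF-kB motif, 6.75% the AP-1 motif and 9.56% the C/EBP motif.

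LPS raised most of these genes. In vehicle-treated cells 8 of the 10 rose and 0 fell, against 10.1% of all 11547 tested genes that rose and 21.8% that fell (limma, Benjamini-Hochberg adjusted p under 0.05). Among members above the array median in both groups, the rises ran from 2.52-fold for Ccl3 to 15.2-fold for Ccrl2. For members under it without LPS they were at least 1.60-fold (Ccl6), 2.04-fold (Ccl7) and 22.0-fold (Ccl22). In fraction-treated cells 8 rose and 0 fell (11.5% and 25.8% of all genes), and in mixture-treated cells 6 rose and 0 fell (8.32% and 16.3%). Ccl2, Ccl3, Ccl4, Ccl9, Ccl22 and Ccrl2 rose in all 3 treatments, Ccl7 rose in vehicle-treated and fraction-treated cells, Ccl6 passed only in vehicle-treated cells and Ccl20 only in fraction-treated cells. Ccl17 passed in none. The members' median log2 difference was 2.08, 2.89 and 1.88 in the 3 treatments, beside -0.07, -0.11 and -0.07 over all tested genes. All 10 passed the filter on dim probe sets, but Ccl7 and Ccl22 passed it only through LPS arrays and Ccl20 only through those of fraction plus LPS. Of the other 7 members, 6, 5 and 5 rose in the 3 treatments. Fewer cells and less RNA per cell cannot be told apart in such bulk samples.

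Over all genes the split of rises and falls with LPS turned with the scaling between arrays. It was 1161 higher and 2519 lower in vehicle-treated cells as deposited, 672 and 2936 with each array centred on the median of all its probe sets, and 2366 and 1351 with each array centred on the median of the tested genes. In fraction-treated cells it was 1330 and 2979, 968 and 2387, and 2582 and 1694, and in mixture-treated cells 961 and 1883, 788 and 1063, and 1689 and 1092. The median of all genes for LPS in vehicle-treated cells was -0.07, -0.21 and 0.11 under the 3 scalings. The members that rose under them numbered 8, 7 and 8 in vehicle-treated cells, 8, 8 and 8 in fraction-treated cells and 6, 6 and 7 in mixture-treated cells.

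**Figure D1:**
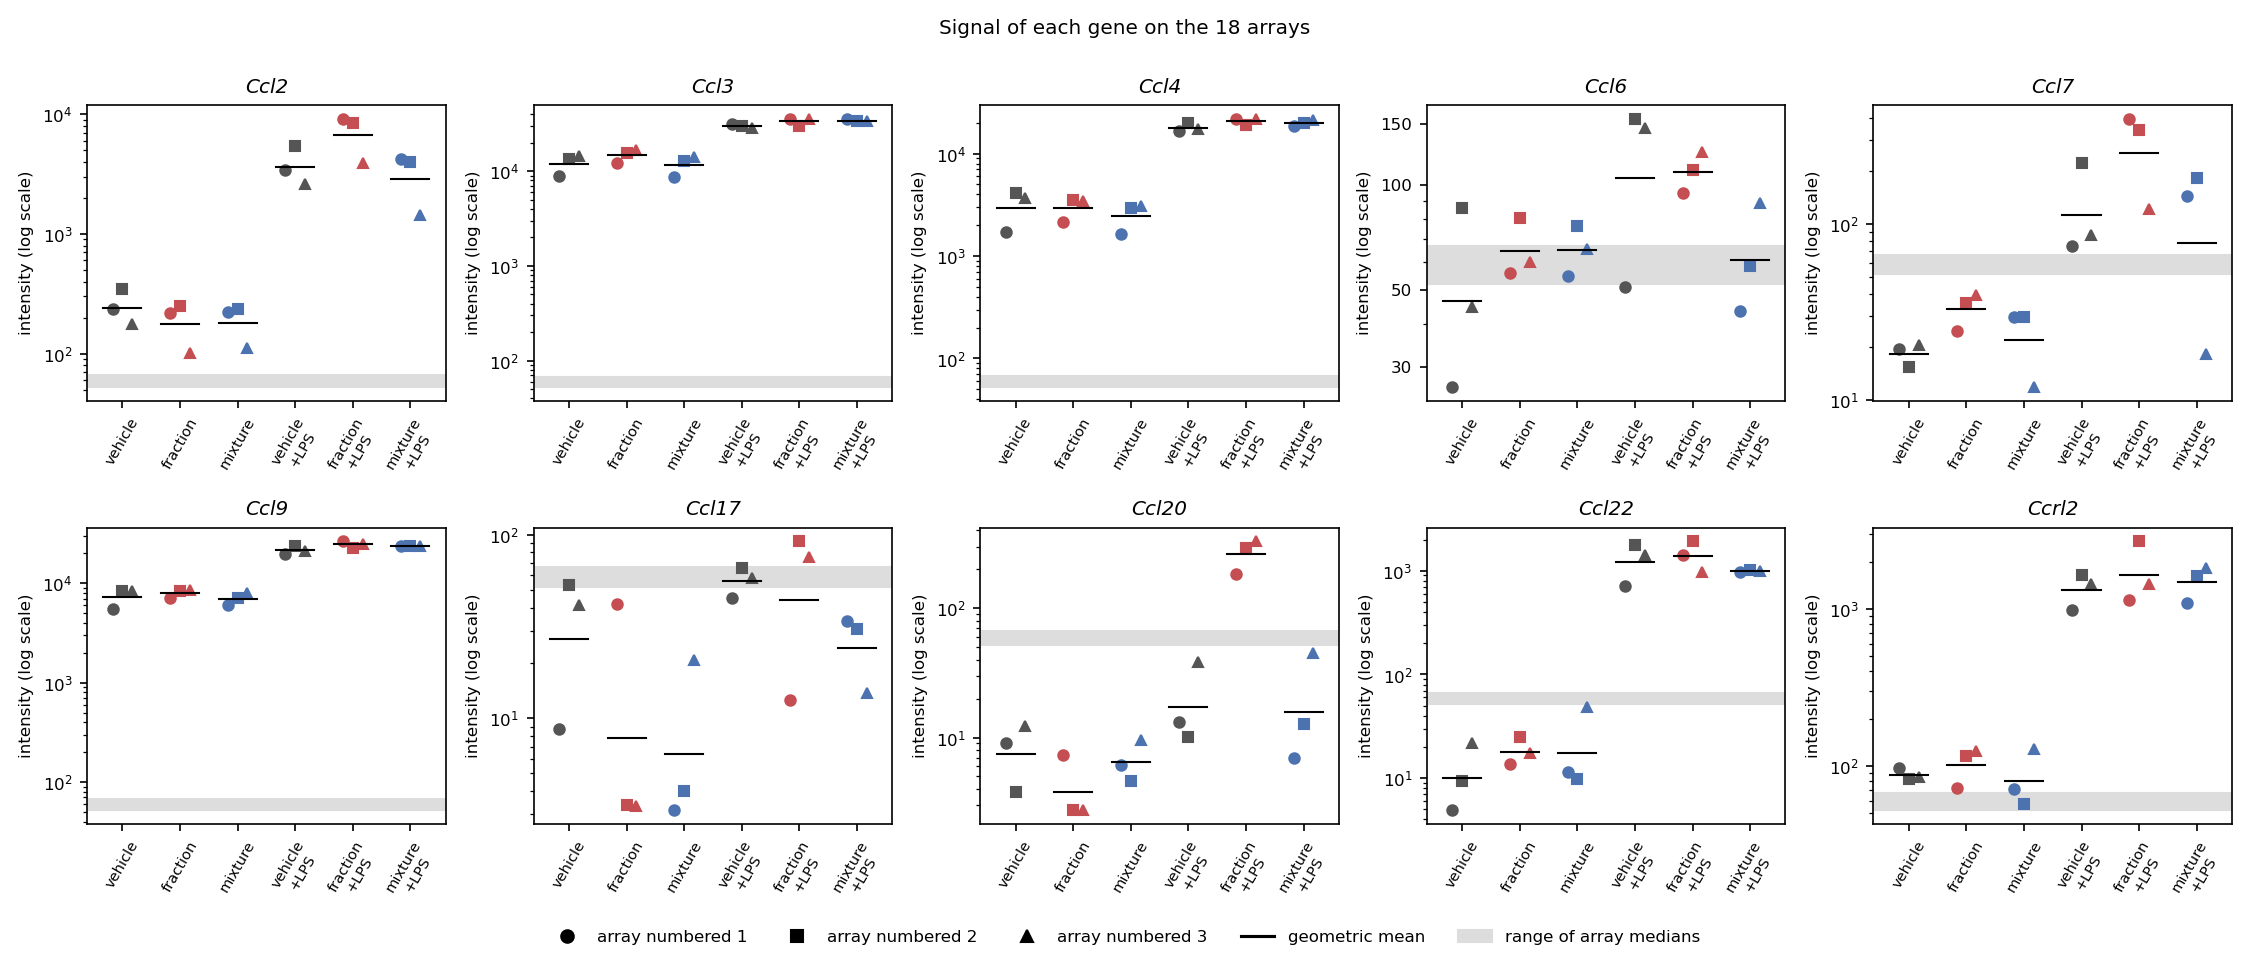
Intensity of each of the 10 genes on every array, on a log axis whose range differs between panels. Points are arrays, with the shape giving the replicate number, the short line is the geometric mean of 3 arrays and the grey band spans the array medians (52.1 to 66.8). Ccl20 stands above the band on the 3 arrays of fraction plus LPS (185 to 329) and on no other.

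Ccl2, the monocyte attractant also called MCP-1, was above the array median on all 18 arrays. Without LPS its intensity was 235, 344 and 175 on the vehicle arrays, 219.6, 250.4 and 101 on the fraction arrays and 222, 235 and 111 on the mixture arrays. With LPS it was 3441, 5396 and 2595 with vehicle, 9199.9, 8498 and 3922.5 with the fraction and 4201, 3982 and 1433 with the mixture. Every LPS array lay above every array without LPS, the array numbered 3 was the lowest in all 6 groups, and the 3 groups within either LPS state overlapped. LPS raised Ccl2 15.1-fold in vehicle-treated cells (log2 difference 3.91 ± 0.43, SE, n = 3 per group, adjusted p = 1.2e-06), 38.1-fold in fraction-treated cells (5.25 ± 0.43, 2.1e-08) and 16.1-fold in mixture-treated cells (4.01 ± 0.43, 1.2e-06). With LPS, Ccl2 was 2.34-fold higher with the fraction than with the mixture (log2 difference 1.23 ± 0.43, 95% interval 0.32 to 2.13, adjusted p = 0.041). That call was lost in 7 of 30 alternative analyses, among them those without fraction plus LPS array 1 (adjusted p = 0.15) or 2 (0.13) and without mixture plus LPS array 3 (0.24). Against vehicle with LPS, the fraction gave 0.89 ± 0.43 (interval -0.02 to 1.80, adjusted p = 0.15) and the mixture -0.34 ± 0.43 (interval -1.24 to 0.57, adjusted p = 0.87). The fraction's difference passed in 1 of 30 alternative analyses, that with the replicate number as a block in the model (adjusted p = 0.00041). The labels do not tie arrays of the same number.

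Ccl7, the neighbour of Ccl2 on chromosome 11, encodes the monocyte attractant MCP-3. Its intensity without LPS was 19.4, 15.5 and 20.6 with vehicle, 24.8, 35.7 and 39.6 with the fraction and 29.8, 29.8 and 11.8 with the mixture, all under the array median. The LPS arrays gave 75.2, 222 and 86.5 with vehicle, 395, 339 and 122 with the fraction and 145, 182 and 18.2 with the mixture, so that 8 of the 9 LPS arrays were above the median and mixture plus LPS array 3 was not. Where a group's mean lay under the array median, its arrays under their median were set to it, and the fold is a lower bound. Ccl7 rose at least 2.04-fold with LPS in vehicle-treated cells (log2 difference 2.62 ± 0.69, adjusted p = 0.0061) and at least 4.19-fold in fraction-treated cells (2.95 ± 0.69, 0.0021). The first call was lost with low signals set to the array median (adjusted p = 0.066) and the second without the 6 arrays numbered 1 (0.058). In mixture-treated cells the log2 difference was 1.84 ± 0.69 (adjusted p = 0.057), and it was 2.89 without mixture plus LPS array 3 (adjusted p = 0.001). Fraction minus mixture with LPS was 1.69 ± 0.69 (interval 0.26 to 3.13, adjusted p = 0.074), with overlapping groups, and it passed without fraction plus LPS array 3 (0.039) or mixture plus LPS array 2 (0.029).

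Ccl3 and Ccl4 encode the macrophage inflammatory proteins 1 alpha and 1 beta and are neighbours on chromosome 11. Both were bright on every array. Ccl3 ranged from 8733 to 16557 on the 9 arrays without LPS and from 28541 to 35847 on the 9 with it, with no overlap between LPS states. It rose 2.52-fold with LPS in vehicle-treated cells (log2 difference 1.33 ± 0.17, adjusted p = 4.8e-06), 2.31-fold in fraction-treated cells (1.21 ± 0.17, 1e-05) and 2.93-fold in mixture-treated cells (1.55 ± 0.17, 9.8e-07). On the LPS arrays Ccl3 ranked between 5 and 12 among all probe sets of its array, against 289 to 787 without LPS, and whether a ceiling of the scanner bounded its rise was not tested. With LPS the mixture arrays of Ccl3 (33462 to 35319) lay above the vehicle arrays (28541 to 31129), but the difference did not pass (0.19 ± 0.17, adjusted p = 0.77). Ccl4 was 1715, 4133.5 and 3666 on the vehicle arrays and 16605, 19894 and 17564 with LPS. Its rise was 6.07-fold there (log2 difference 2.60 ± 0.26, adjusted p = 3.4e-07), 7.07-fold with the fraction (2.82 ± 0.26, 8.5e-08) and 8.14-fold with the mixture (3.03 ± 0.26, 5.8e-08). The 3 LPS groups overlapped for Ccl4, at 16605 to 19894 with vehicle, 19134 to 21954 with the fraction and 18467 to 21317 with the mixture.

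Ccl9, the gene of macrophage inflammatory protein 1 gamma, ranged from 5551.5 to 8492 without LPS and from 19843 to 26438 with it. LPS raised it 2.96-fold in vehicle-treated cells (log2 difference 1.56 ± 0.13, adjusted p = 2.6e-08), 3.10-fold in fraction-treated cells (1.63 ± 0.13, 1.3e-08) and 3.36-fold in mixture-treated cells (1.75 ± 0.13, 8.1e-09). A second probe set of Ccl9 gave larger log2 differences, 2.13, 2.07 and 2.18, each ± 0.13. The mixture plus LPS arrays of Ccl9 lay within 23526 to 23647, inside the range of both other LPS groups.

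Ccl6, which lies next to Ccl9 and encodes the chemokine C10, stayed near the array median. Without LPS it was 26.3, 85.8 and 44.8 with vehicle, 55.8, 80.4 and 60.2 with the fraction and 54.9, 76.1 and 65.6 with the mixture. After LPS it was 50.9, 155 and 146 with vehicle, 94.97, 110.1 and 125 with the fraction and 43.5, 58.5 and 88.7 with the mixture. The array numbered 1 was the lowest in each of the 6 groups, and the vehicle groups with and without LPS overlapped. Ccl6 rose at least 1.60-fold with LPS in vehicle-treated cells (log2 difference 1.17 ± 0.44, adjusted p = 0.046), a call that 20 of 29 alternative analyses lost, among them those without vehicle array 1 (log2 difference 0.76, adjusted p = 0.23), vehicle array 3 (0.096), or vehicle plus LPS array 2 (0.2) or 3 (0.18). The difference was 0.76 ± 0.44 in fraction-treated cells (adjusted p = 0.19) and -0.09 ± 0.44 in mixture-treated cells (0.91). A second probe set of Ccl6 was under the array median on all 18 arrays and was not tested.

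Ccl22, the gene of macrophage-derived chemokine, was under the array median on all 9 arrays without LPS and above it on all 9 with LPS. Its intensity without LPS was 4.92, 9.42 and 22.0 with vehicle, 13.6, 24.9 and 17.5 with the fraction and 11.4, 9.78 and 48.6 with the mixture. The LPS arrays gave 711, 1764 and 1433 with vehicle, 1427, 1921 and 966 with the fraction and 962, 1018 and 1005 with the mixture. The LPS states did not overlap, and the 3 LPS groups did. Ccl22 rose at least 22.0-fold with LPS in vehicle-treated cells (log2 difference 6.92 ± 0.53, adjusted p = 1e-08), at least 22.9-fold in fraction-treated cells (6.26 ± 0.53, 2.9e-08) and at least 16.6-fold in mixture-treated cells (5.83 ± 0.53, 1.3e-07). These log2 differences rest on signals below the median and were 4.46, 4.52 and 4.06 with low signals set to that median.

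Ccl17, the gene of the other CCR4 ligand (TARC), reached the array median on 4 of 18 arrays. It lies on chromosome 8 with Ccl22, with the chemokine gene Cx3cl1 between them. Ccl17 was 8.77, 53.5 and 41.5 with vehicle, 41.8, 3.38 and 3.34 with the fraction and 3.15, 3.99 and 20.7 with the mixture. After LPS it was 45.4, 65.7 and 58.2 with vehicle, 12.5, 92.0 and 75.2 with the fraction and 34.0, 30.5 and 13.8 with the mixture. Groups overlapped in every comparison except the mixture against vehicle with LPS (-1.20 ± 1.09, adjusted p = 0.79), and no comparison of Ccl17 passed. The LPS differences were 1.05 ± 1.09 in vehicle-treated (adjusted p = 0.51), 2.51 ± 1.09 in fraction-treated (0.08) and 1.93 ± 1.09 in mixture-treated cells (0.22). The one in fraction-treated cells passed without fraction array 1 (3.72, adjusted p = 0.015), without fraction plus LPS array 1 (3.42, 0.029) and without the 6 arrays numbered 1 (4.63, 0.0041).

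Ccl20, whose product attracts CCR6-bearing lymphocytes and dendritic cells, was the only member that passed against vehicle, with the fraction in LPS-treated cells. On the arrays without LPS it was 9.07, 3.77 and 12.2 with vehicle, 7.37, 2.75 and 2.74 with the fraction and 6.10, 4.57 and 9.52 with the mixture. With LPS it was 13.1, 10.2 and 38.7 with vehicle, 185, 293 and 329 with the fraction and 6.89, 12.7 and 45.2 with the mixture. The 3 arrays of fraction plus LPS were the only ones above the array median, and the lowest of them was above all 15 others. Ccl20 therefore passed the filter on dim probe sets only through the group in which it was high. With LPS it was at least 4.31-fold higher with the fraction than with vehicle (log2 difference 3.92 ± 0.99, interval 1.84 to 5.999, adjusted p = 0.0068). It was at least 4.50-fold higher than with the mixture (4.05 ± 0.99, interval 1.97 to 6.13, adjusted p = 0.0046). Its rise with LPS in fraction-treated cells was at least 4.33-fold (6.10 ± 0.99, adjusted p = 7e-05), beside 1.21 ± 0.99 in vehicle-treated (0.39) and 1.30 ± 0.99 in mixture-treated cells (0.39), all under the array median.

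With any 1 of the fraction plus LPS arrays left out, Ccl20 reached the median on too few arrays to be tested. With no filter its difference from vehicle in LPS-treated cells was then 3.75 to 4.17 (adjusted p between 0.0039 and 0.0097), and that from the mixture 3.88 to 4.30 (between 0.0024 and 0.0061). The test of the difference itself, the interaction of the fraction with LPS, gave 4.89 ± 1.41 for Ccl20 (interval 1.94 to 7.83) and did not pass (adjusted p = 0.085). It passed with log2 of the intensity plus 32 (2.67, adjusted p = 0.0011), with low signals set to the array median (1.98, 0.00012), with no filter (0.03) and with no intensity trend in the variance (0.029). With no filter it no longer passed without fraction plus LPS array 2 (4.80, adjusted p = 0.072) or 3 (4.72, 0.079) or without the 6 arrays numbered 1 (5.27, 0.11), and it did without fraction plus LPS array 1 (5.14, 0.049).

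Ccrl2 lies on chromosome 9, away from the ligand genes. Its intensity without LPS was 96.4, 82.3 and 84.8 with vehicle, 72.1, 115 and 124 with the fraction and 70.9, 56.9 and 127 with the mixture. After LPS it was 982, 1654 and 1446 with vehicle, 1136, 2702.5 and 1442 with the fraction and 1096, 1623 and 1838 with the mixture. All 9 LPS arrays were above all 9 others, and the treatments overlapped within each LPS state. Ccrl2 rose 15.2-fold in vehicle-treated cells (log2 difference 3.92 ± 0.31, adjusted p = 1.5e-08), 16.3-fold in fraction-treated cells (4.02 ± 0.31, 9.2e-09) and 18.5-fold in mixture-treated cells (4.21 ± 0.31, 8.1e-09).

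**Figure D2:**
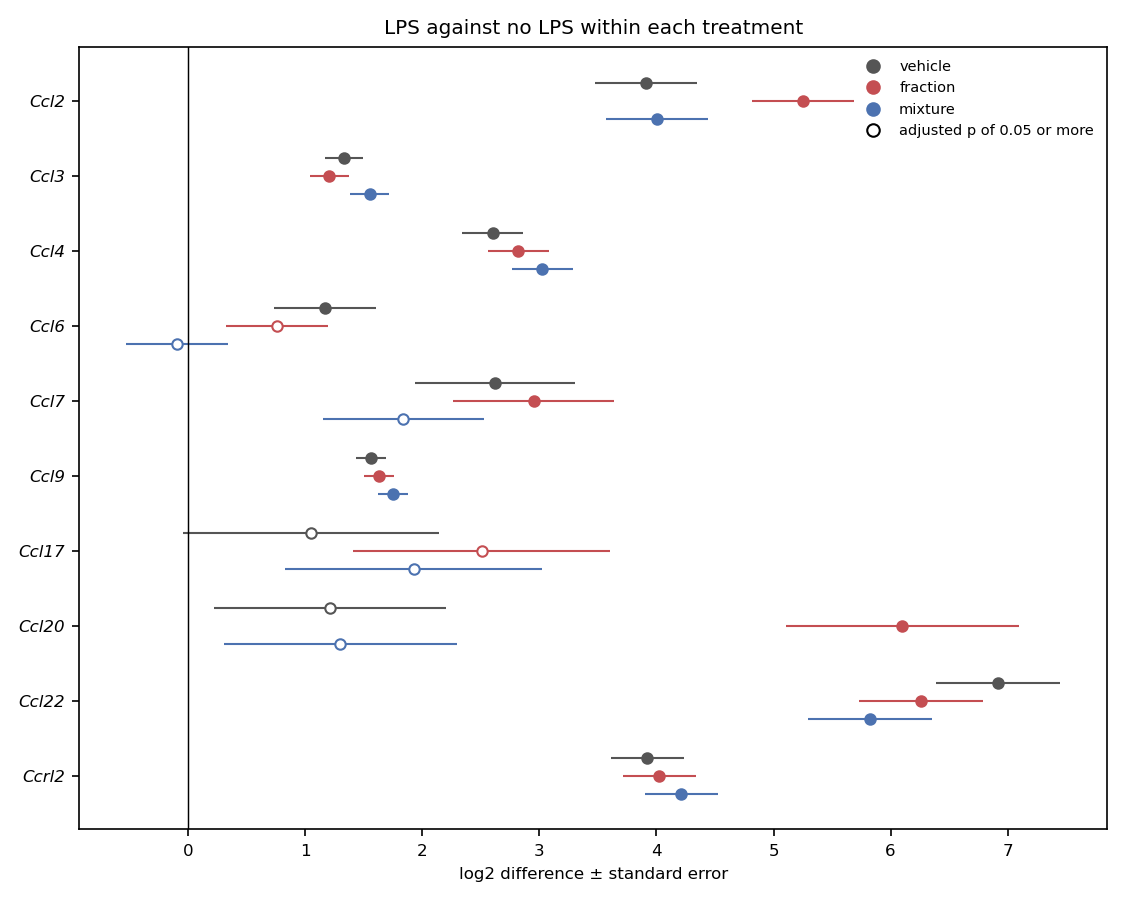
Log2 difference between LPS and no LPS for each gene in vehicle-treated, fraction-treated and mixture-treated cells, with bars of 1 standard error (n = 3 arrays per group). Filled points passed the adjusted p of 0.05. All points except that of Ccl6 in mixture-treated cells (-0.09) lie above 0, and Ccl20 is at 6.10 with the fraction and at 1.21 and 1.30 otherwise.

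No member was called for the fraction without LPS. The limma test called 0 of them higher or lower, against 31.2% of all tested genes, and 0 of the 10 had an unadjusted p under 0.05, against 40% of all genes. The members' median log2 difference was 0.17, beside 0.02 over all genes. For the genes above the array median in both groups the differences and their 95% intervals were -0.45 for Ccl2 (-1.36 to 0.46), 0.30 for Ccl3 (-0.05 to 0.65), 0.00 for Ccl4 (-0.54 to 0.55), 0.13 for Ccl9 (-0.14 to 0.40) and 0.20 for Ccrl2 (-0.45 to 0.86). Over all genes the fraction's calls split into 1837 higher and 1771 lower, and into 940 and 1968 with arrays centred on the median of all probe sets, with 0 members in either. With the replicate number as a block in the model, Ccl2 was called lower (adjusted p = 0.037), beside 2038 of all genes called lower.

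With LPS the fraction raised 1 of the 10, Ccl20, and lowered 0, against 23.8% of all genes called and 11.1% called higher. Ccl20 passed the filter on dim probe sets only through the fraction plus LPS arrays, and no other member was called. The members' median was 0.21, beside -0.02 over all genes. Differences from vehicle did not pass for Ccl3 (0.18 ± 0.17), Ccl4 (0.22 ± 0.26), Ccl9 (0.20 ± 0.13), Ccl22 (0.19 ± 0.53) and Ccrl2 (0.30 ± 0.31), with adjusted p-values between 0.3 and 0.85. Ccl7 was at 1.16 ± 0.69 (interval -0.27 to 2.60, adjusted p = 0.25).

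No member was called for the mixture, with or without LPS. Its comparisons share the vehicle arrays with those of the fraction. In both states 0% of all tested genes were called by limma, and the members with an unadjusted p under 0.05 numbered 0, beside 4.89% of all genes without LPS and 8.09% with it. The members' medians were -0.09 without LPS and -0.21 with it, beside 0.00 and 0.02 over all genes. With LPS the intervals of the mixture's difference from vehicle were -0.15 to 0.54 for Ccl3, -0.40 to 0.69 for Ccl4, -0.14 to 0.41 for Ccl9 and -0.49 to 0.81 for Ccrl2. Those of Ccl2 (-1.24 to 0.57), Ccl6 (-1.69 to 0.13), Ccl7 (-1.97 to 0.91), Ccl17 (-3.49 to 1.09), Ccl20 (-2.21 to 1.95) and Ccl22 (-1.40 to 0.82) were wider. For no member do these data show the mixture and the vehicle to act alike.

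**Figure D3:**
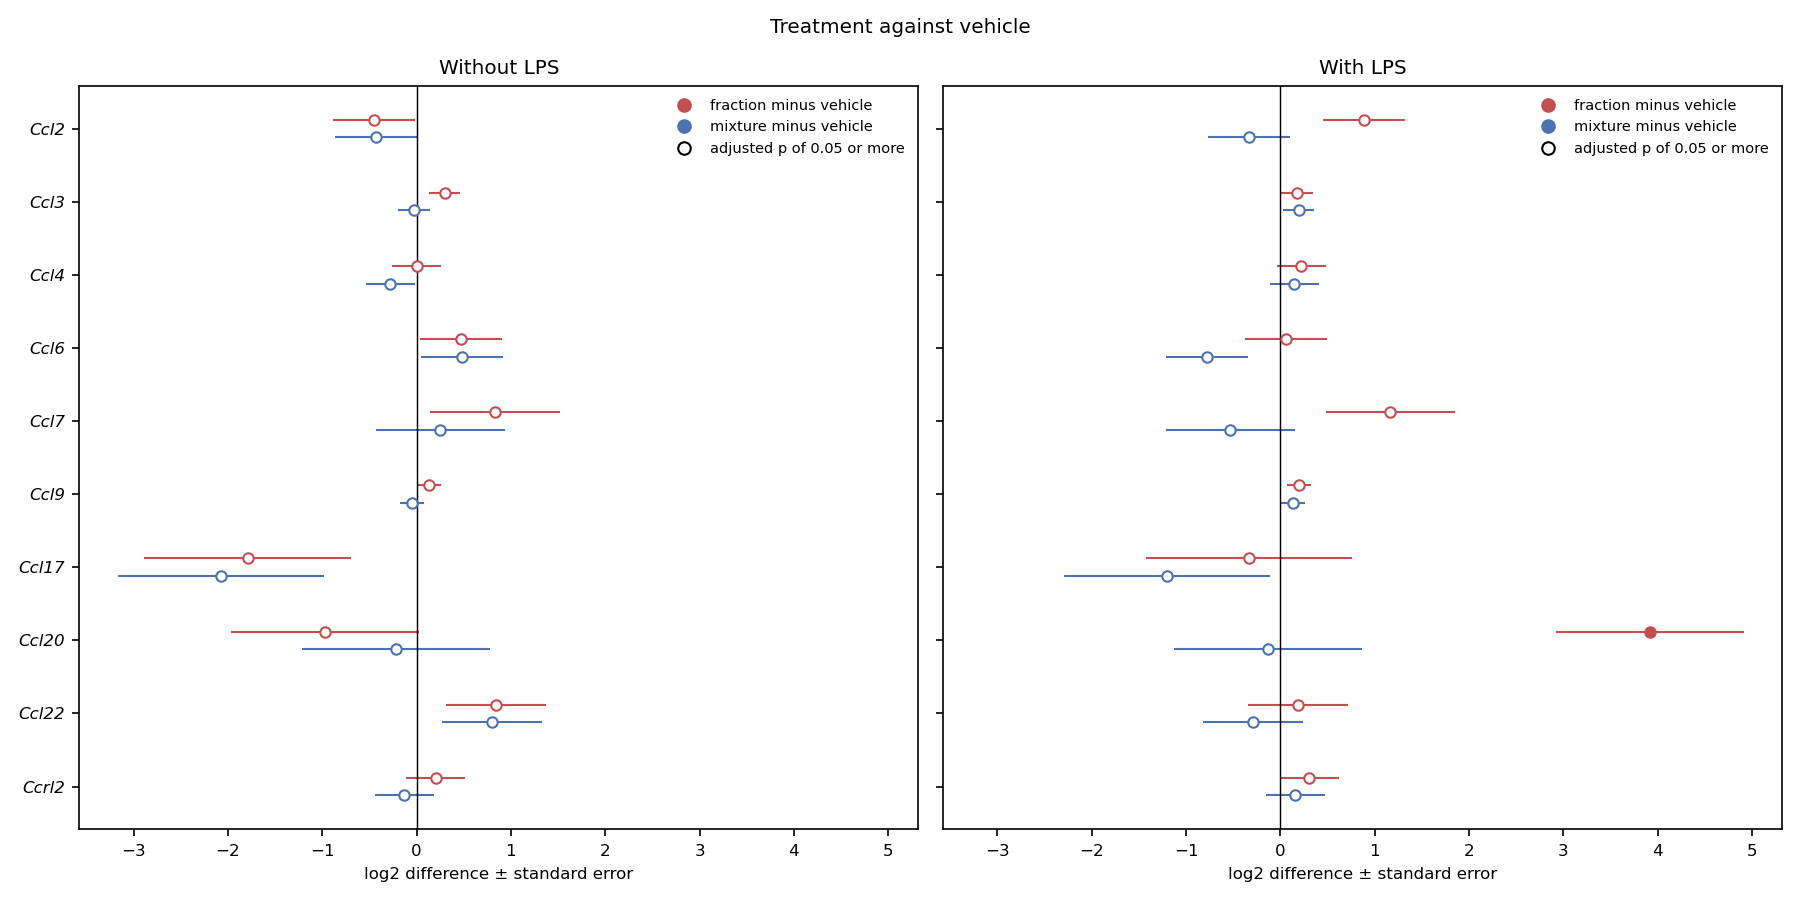
Log2 difference of the fraction and of the mixture from vehicle for each gene, without LPS (left) and with LPS (right), with bars of 1 standard error (n = 3 arrays per group). The filled point, which passed the adjusted p of 0.05, is Ccl20 for the fraction with LPS at 3.92, and the wide bars of Ccl17 and Ccl20 belong to signals under the array median.

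The fraction and the mixture were compared directly in both LPS states. Without LPS 0 of the 10 members differed (32.4% of all genes were called), and 0 had an unadjusted p under 0.05. The members' median was 0.23, and the closest was Ccl3, at 0.33 ± 0.17 (interval -0.02 to 0.67, adjusted p = 0.15). With LPS 2 of the 10 were higher with the fraction, Ccl2 and Ccl20, and 0 were lower, against 28.2% of all genes called and 12% called higher. Ccl20 passed the filter on dim probe sets only through the fraction plus LPS arrays, and without it Ccl2 was the only member called. The members' median with LPS was 0.66, beside -0.03 over all genes. Ccl22 was at 0.48 ± 0.53 and Ccl6 at 0.84 ± 0.44 (adjusted p = 0.17), though the fraction plus LPS arrays of Ccl6 lay above the mixture plus LPS arrays.

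The interaction of the fraction with LPS passed for 0 of the 10 members, against 2.14% of all genes, with Ccl2 (1.34 ± 0.61, adjusted p = 0.34) and Ccl20 at an unadjusted p under 0.05. The split of these calls over all genes was 103 higher and 144 lower, and 58 and 28 with arrays centred on the median of all probe sets. With the replicate number as a block in the model, the interaction of the fraction passed for Ccl2 (adjusted p = 0.0023). The interaction of the mixture with LPS passed for 0% of all genes, and 0 members had an unadjusted p under 0.05.

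Of the 30 other genes of the CC system that were listed, 12 could be tested, and Ccl5, Ccl12, Ccr1 and Ackr4 passed in some comparison. Among the other ligands 4 of 12 were tested (Ccl5, Ccl12, Ccl25 and Ccl28), and Ccl5 and Ccl12 rose with LPS in all 3 treatments while 0 fell. Over all tested genes 10.1%, 11.5% and 8.32% rose in vehicle-treated, fraction-treated and mixture-treated cells, and 21.8%, 25.8% and 16.3% fell. Ccl5, the gene of RANTES and the neighbour of Ccl9, rose 52.8-fold in vehicle-treated cells (5.72 ± 0.18, adjusted p = 5.3e-14), 122-fold in fraction-treated cells (6.93 ± 0.18, 1.6e-15) and 71.3-fold in mixture-treated cells (6.16 ± 0.18, 1.4e-14). Without LPS the fraction lowered it 1.79-fold (log2 difference -0.84 ± 0.18, adjusted p = 0.0017), 1 of 4 tested ligands against 15.3% of all genes that fell. With LPS the fraction's difference from vehicle did not pass for Ccl5 (0.37 ± 0.18, adjusted p = 0.16). Its interaction of fraction and LPS was 1.21 ± 0.26 (adjusted p = 0.019), against 0.892% of all genes called higher, and was lost in 4 of 30 alternative analyses, among them those without vehicle array 3 (0.055) or fraction array 2 (0.056). Ccl12, another CCR2 ligand gene, rose at least 1.76-fold, 1.27-fold and 1.50-fold with LPS in vehicle-treated, fraction-treated and mixture-treated cells. Like Ccl7 and Ccl22, Ccl12 passed the filter only through LPS arrays, of which 7 were above the median, so its rises are given as a description. Its calls in fraction-treated (adjusted p = 0.061) and mixture-treated cells (0.054) were lost with low signals set to the array median.

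Among the CC receptors 4 of 11 were tested (Ccr1, Ccr2, Ccr6 and Ccr10). Ccr1, a receptor for Ccl3, Ccl6 and Ccl9, was higher with LPS in mixture-treated cells (log2 difference 2.91 ± 0.53, adjusted p = 0.00041), where 8.32% of all genes rose. It was also higher with the fraction than with the mixture without LPS (2.46 ± 0.53, 0.0014), where 17% of all genes were called higher. In vehicle-treated cells Ccr1 was at 96.9 with LPS and 38.0 without, groups that did not overlap, and the difference did not pass (1.35 ± 0.53, at least 1.75-fold, adjusted p = 0.059) but did in 8 of 28 alternative analyses. Ccr1 passed the filter only through LPS arrays, 5 in all. The mixture group without LPS had a geometric mean of 7.20, and all groups in the comparisons that passed were under the array median. With low signals set to that median the differences were 0.01 and 0.02, and with only the compared arrays in the fit the adjusted p-values were 0.051 and 0.074. In the comparison of the fraction with vehicle, with or without LPS, 0 of the 4 receptors passed. Of all tested genes 31.2% were called there without LPS and 23.8% with it. Among the atypical receptors and chemerin genes 4 of 7 were tested (Ackr1, Ackr2, Ackr4 and Rarres2). Ackr4, a scavenging receptor for other CC chemokines, fell with LPS by 0.52 ± 0.15 in vehicle-treated cells (adjusted p = 0.013) and by 0.48 ± 0.15 in fraction-treated cells (0.017) on the log2 scale. In these comparisons 21.8% and 25.8% of all genes fell. Both falls of Ackr4 were lost with quantile normalization (0.058 and 0.11) and with arrays centred on the median of the tested genes (0.11 and 0.16), and single arrays decided them too, vehicle array 3 the first (0.087 without it) and fraction array 1 (0.072) or fraction plus LPS array 1 (0.053) the second.

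The tested genes outside the members whose log2 values followed each member most closely over the 18 arrays were found by Pearson's r. These arrays are 9 with and 9 without LPS, so r was also taken within each 9. The members were left out of this ranking, although some were closer to each other. Over the 18 arrays r was 0.995 for Ccl4 with Ccl9, and 0.986 for Ccl3 with each of Ccl4 and Ccl9. Among genes outside the members, Ccl3 was followed most closely by Nfkbia, the gene of an inhibitor of NF-kB (r = 0.983 over 18 arrays, 0.845 without and 0.961 with LPS). Pdgfb, a growth factor gene, came second (0.979, 0.832 and 0.172). Ccl4 and Ccl9 had the same pair, Pdgfb and the cytokine gene Csf3, at r between 0.984 and 0.985. Within the arrays without and with LPS, r was 0.755 and 0.749 for Ccl4 with Pdgfb, 0.718 and 0.480 for Ccl4 with Csf3, 0.822 and 0.602 for Ccl9 with Pdgfb and 0.559 and 0.515 for Ccl9 with Csf3. Ccl22 and Ccrl2 shared Rab8b, the gene of a small GTPase, as first (0.986 and 0.988 over 18 arrays). Within the LPS states Rab8b stood at 0.649 and 0.776 for Ccl22 and at 0.492 and 0.796 for Ccrl2. Second were Shisa3 for Ccl22 (0.986, and 0.775 and 0.711 within the states) and Gadd45b for Ccrl2 (0.987, and 0.314 and 0.785). Ccl2 was followed by Acot7 (0.980, and 0.453 without and 0.920 with LPS) and Fabp4 (0.974, 0.536 and 0.781). For these members both values within the LPS states were lower than r over all 18 arrays. Ccl7 was followed by Rabgef1 (0.920, 0.649 and 0.813) and the TNF receptor gene Tnfrsf1b (0.905, 0.773 and 0.783), and Ccl20 by Xiap, the gene of an apoptosis inhibitor (0.914, 0.753 and 0.885), and Gm13889 (0.906, 0.450 and 0.880). The likeness was lowest for the dim genes Ccl6, with Tmem176a (0.846, 0.779 and 0.840) and Arhgap26 (0.830, 0.426 and 0.937), and Ccl17, with Sprr2k (0.792, 0.939 and 0.366) and Pcdh7 (0.789, 0.828 and 0.236).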

How the data were processed

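RNA of RAW264.7 cells was labelled with biotin and hybridised to Affymetrix mouse genome arrays, per the labels. The deposited values are linear MAS5 intensities (per the submitters' processing notes and the values), scaled by the authors to one trimmed mean per array. The MAS5 version is not given in the sources used here, and scanner files and detection calls were not used here. Probe sets were named from the platform annotation. Of 45101 probe sets, 64 controls were left out, and of the others 34945 had 1 symbol, 932 several and 9160 none. Intensities under 1 (0.823% of values) were set to 1 before log2 was taken. Probe sets at or above their array's median on at least 3 of 18 arrays were kept, and each of 11547 genes was represented by its brightest.

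One model with 6 group means was fitted in limma 3.58.1 under R 4.3.3, with 12 residual degrees of freedom and moderated variances that follow intensity. Its 11 comparisons were two-sided, and p-values were adjusted by Benjamini-Hochberg across the tested genes, with 0.05 as threshold. It was tested on simulated data. A fold against a group whose mean lay under the array median is a lower bound, computed with that group's arrays under their median set to it. The number of arrays, 3 per group, limits the precision.

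The members, the list of 30 other CC genes, the marker lists and the rule for genes most like each member (the 2 of highest r, with the members left out) were chosen with earlier results of these data known. All 10 members are named, and of the other CC genes those that passed. Alternatives were a replicate block, quantile normalization, centring on the median of all probe sets, log2 of the intensity plus 32, low signals set to the array median, no filter, a 75th percentile filter, no trend, only the compared arrays, every probe set, leaving out the 6 arrays numbered 1 and leaving out each array. Centring on the median of the tested genes, and the tests of Ccl20 with no filter and fewer arrays, were added after seeing the data. Nothing in the labels ties arrays of the same number, and they were analysed as unpaired.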

Additional observations from a re-analysis of the deposited data

Results flagged for a closer look

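Ccl5, a CC ligand gene outside the 10 members, had a larger rise with LPS in fraction-treated than in vehicle-treated cells by the test of the difference itself, with an interaction of 1.21 ± 0.26 on the log2 scale (adjusted p = 0.019 by limma, n = 3 arrays per group). The fraction's difference from vehicle was -0.84 ± 0.18 without LPS (adjusted p = 0.0017). With LPS it was 0.37 ± 0.18 (adjusted p = 0.16), with overlapping groups. The interaction was lost in 4 of 30 alternative analyses. Its cause was not tested.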

How the results depend on the processing

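Of 3256 values of single members under the alternatives, 3206 kept their side of the threshold or stayed uncalled, 29 lost a call, 21 gained one and 0 called values changed sign. Leaving out an array outside the compared groups left a member's log2 difference as it was. Many of the 3256 values could therefore hardly change, and the tally does not measure robustness. The count of members called kept within 1.5 times its value under all alternatives for LPS in the 3 treatments for both comparisons of the mixture with vehicle and for the interaction of the mixture with LPS. For the fraction without LPS it was 1 with the replicate block (Ccl2, lower, adjusted p = 0.037) and 1 without the 6 arrays numbered 1 (Ccl17, lower, 0.016). For the fraction with LPS it was 2 with the replicate block (Ccl2 added, 0.00041), 2 with low signals set to the array median (Ccl7 added, 0.048), 0 with the 75th percentile filter and 0 without the 6 arrays numbered 1, and it ranged from 0 to 1 when single arrays were left out, with Ccl20 untested in each case of 0. For the fraction against the mixture without LPS it was 1 with quantile normalization (Ccl3, 0.028). With LPS it was 1 with median centring, 1 with no filter, 1 with the 75th percentile filter, 1 with no trend and 0 without the 6 arrays numbered 1, and it ranged from 0 to 3 when single arrays were left out. In each case of 0 Ccl20 was untested and Ccl2 lost its call. For the interaction of the fraction with LPS it was 1 with the replicate block (Ccl2, 0.0023), and 1 (Ccl20) with log2 of the intensity plus 32, with low signals set to the median, with no filter and with no trend. Members untested under the stricter filter account for its lower counts. That Ccl20 was untested accounts for the counts of 0 for the fraction with LPS, and for part of those against the mixture with LPS. For the other changes the cause was not tested.

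Nothing in the labels pairs the arrays, and the main fit was unpaired. Deviations from the group means correlated at 0.018 to 0.170 between arrays of the same number, over 0.1 in 9 of 45 pairs. All 18 arrays correlated best with an array of their own number, a hint from the data and not the design. The unpaired fit leaves any effect shared by a number in its spread. With the replicate block Ccl7 also passed for LPS in mixture-treated cells (0.024) and for the fraction against the mixture with LPS (0.033). Signals under the array median limit what can be said of Ccl7, Ccl17, Ccl20 and Ccl22 in the groups without LPS. The same limit holds with LPS for most arrays of Ccl17 and for Ccl20 with vehicle and with the mixture (geometric means 17.3 and 15.8).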
